A study of Saccharomyces cerevisiae with 3 samples.

Results

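The regions described here are the broad H3K4me2 peaks of budding yeast (Saccharomyces cerevisiae), chosen by their measured width as the entries of the H3K4me2 peak list that are 1600 bp or longer from start to end. There are 305 of them among 2998 H3K4me2 peaks (10.2%), and they hold 17.1% of the bases and 18.9% of the tags (aligned sequence reads) under that mark. Chromatin immunoprecipitation followed by sequencing was carried out on strain BY4741, a haploid laboratory strain, grown in YEPD, a rich glucose medium, to mid-log phase. All 3 samples share the strain, the medium, fixation with formaldehyde for 20 min and digestion of the chromatin with micrococcal nuclease, an enzyme that cuts between nucleosomes. They differ in the antibody, which was against H3K4me2 in the first, against H3K4me3 in the second and absent in the input, for which no peak list was analysed here. With 1 library per mark no value has a replicate check and no test was made. Exact 95% intervals cover counting error only and treat peaks as independent.

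H3K4me2 and H3K4me3 are the dimethylated and trimethylated forms of lysine 4 of histone H3. In yeast both are written by COMPASS, the complex built around the methyltransferase Set1, which travels with RNA polymerase II in the early part of a gene. Trimethylation is known to lie at the 5′ end of transcribed genes and dimethylation further into the gene body, where the Set3 histone deacetylase complex binds it.

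The broad peaks had more tags per kb than narrower H3K4me2 peaks, and a slightly higher fold, by their medians. Their width had a median of 1803 bp (quartiles 1677 and 2022) and ran to 3105 bp. Of the 305, 150 were under 1800 bp wide, 82 reached 2000 bp and 16 reached 2500 bp. Each held 587 to 1776 tags, with a median of 887. Tag density, the number of tags per kb of peak, had a median of 490 (interval 485 to 499), against 460 in the 746 H3K4me2 peaks of 1200 to under 1600 bp and 408 in the 1947 peaks under 1200 bp. The median of the fold enrichment that the authors gave each peak was 2.79 (2.75 to 2.81) in the broad peaks, 2.72 (2.69 to 2.74) in those of 1200 to under 1600 bp, 2.57 (2.55 to 2.60) in those under 1200 bp and 2.64 over the whole list. Width chose the members, and the part of tag density in width was not tested.

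The limit of 1600 bp fell in a continuous range of widths. The narrowest members lay over PAB1, which encodes the poly(A)-binding protein (1600 bp, fold 2.74), GAS5, a cell wall glucan-modifying enzyme (1601 bp, fold 2.58), and AFG1, a mitochondrial ATPase (1601 bp, fold 2.65). The widest peaks left out lay over AHC1, a subunit of the ADA histone acetyltransferase complex (1 bp under the limit, fold 3.16), NDE1, a mitochondrial NADH dehydrogenase (1597 bp, fold 2.71), and ALR1, a magnesium transporter (1596 bp, fold 2.73). H3K4me3 peaks covered 64.3 to 97.8% of the first 3 peaks and 70.3 to 74.4% of the other 3, so the ranges overlap.

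Most broad H3K4me2 peaks lay on a single gene and covered most of it. By RefSeq R64 annotation, 256 of the 305 peaks (83.9%) touched 1 nuclear protein-coding gene, 46 touched 2 and 3 touched 3. At least 2 genes were therefore touched by 49 peaks (16.1%, interval 12.1 to 20.7), beside 5.6% of H3K4me2 peaks of all widths and 8.45% of those of 1200 to under 1600 bp. A wider interval meets more genes by its width alone. No broad peak lay outside genes, and the median peak had 94.0% of its bases in coding sequence. Every broad peak had a different principal gene, meaning the gene with the largest overlap in bp.

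Whole genes were contained in 98 of the broad peaks (32.1%), 103 genes in all, beside 17% of H3K4me2 peaks of all widths and 22.3% of those of 1200 to under 1600 bp. A wider interval also holds whole genes more easily. The 5 peaks that contained 2 whole genes paired TRM9, a tRNA methyltransferase, with UBX2, a factor of protein degradation at the endoplasmic reticulum; URA8, a CTP synthase, with SOD1, the copper-zinc superoxide dismutase; CAR2, ornithine transaminase, with LSM3, an RNA-binding protein of the Lsm complexes; YIR016W with MET28, a transcription factor of sulfur metabolism; and YMR181C with RGM1, a zinc finger protein. The 3 peaks that touched 3 genes had in their middle MXR2, a methionine sulfoxide reductase, between LSB5 and STE50, YIR016W between RPR2 and MET28, and YJR112W-A between NNF1 and RSM7.

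Counting only genes overlapped by at least 150 bp, about 1 nucleosome, 259 peaks lay on 1 gene (84.9%), 31 on convergent genes that face each other (10.2%) and 13 on tandem genes that run the same way. A divergent pair occurred in 1 peak, over the starts of YLR415C and VPS36, and a divergent with a convergent neighbour in 1, over LSB5, MXR2 and STE50. The convergent peaks had a median width of 1918 bp, the tandem ones 2047 bp and those on 1 gene 1789 bp. Among the 429 annotated nuclear noncoding genes a single one was met, the antisense RNA TBRT, which runs opposite to TAT1, an amino acid permease. The peak over TAT1 (chromosome II, 376650 to 378510, 1861 bp, fold 2.94) covered 95.9% of that gene, and H3K4me3 covered 90.3% of the peak. Because TAT1 and TBRT overlap on opposite strands, the peak cannot be assigned to 1 of them.

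The broad peaks began near the start codon and ended near the stop codon. Positions are measured along the principal gene from its start codon, since the annotated spans run from start codon to stop codon. The upstream edge of the peak lay at a median of −52 bp (interval −76 to −13), within 150 bp of the start codon in 190 peaks (62.3%, 56.6 to 67.8), further upstream in 52 and further inside the gene in 63. The share within 150 bp was 57.8% over all widths and 69.1% at 1200 to under 1600 bp, so it was lower in the broad peaks than in the next narrower class. The downstream edge lay at a median of 1820 bp (1784 to 1853), and the principal gene had a median length of 1836 bp. Relative to the stop codon the downstream edge lay within 150 bp in 172 peaks (56.4%, 50.6 to 62.0), beside 47.3% over all widths and 44.9% at 1200 to under 1600 bp. Both edges lay within 150 bp of their codons in 106 peaks (34.8%), beside 26% over all widths and 29.4% at 1200 to under 1600 bp.

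**Figure D1:**
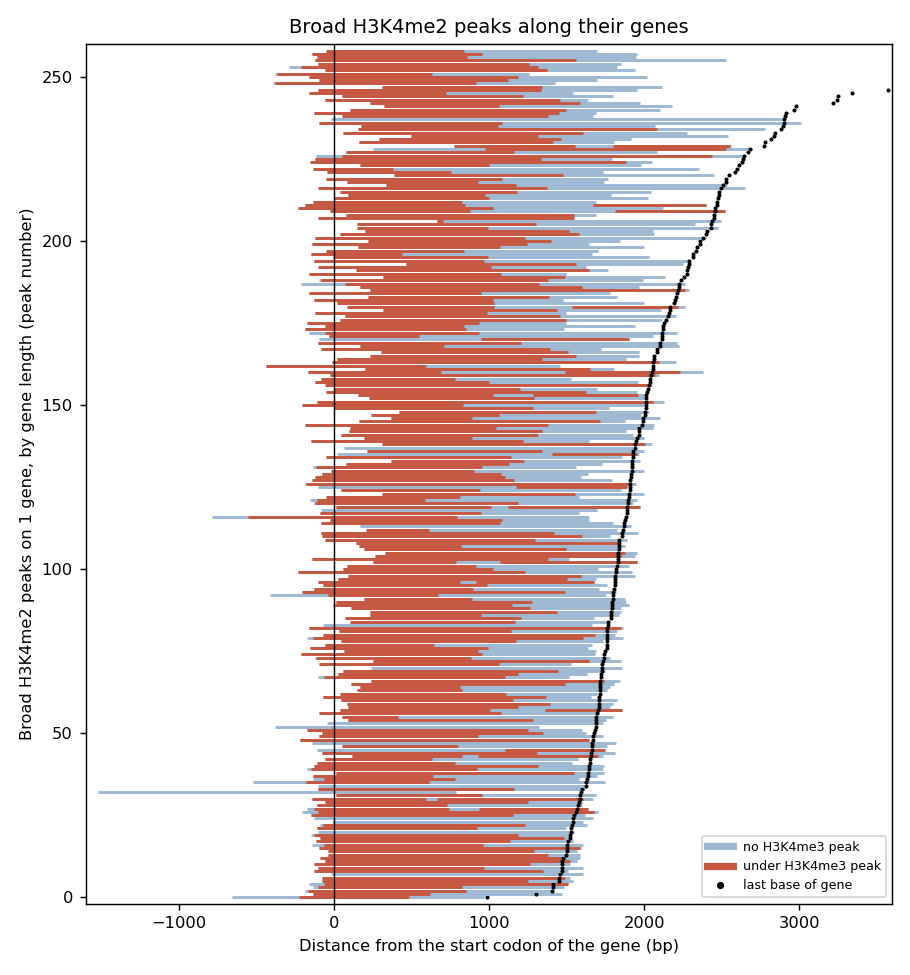
Each of the 259 broad H3K4me2 peaks on 1 gene is drawn as a line by distance from the start codon (bp), sorted from the shortest gene at the bottom to the longest at the top. Blue marks bases under H3K4me2 alone, red marks bases also under an H3K4me3 peak and black points mark the last base of genes up to the right edge of the plot. Most lines begin near 0 and end near the black points until genes exceed about 2000 bp, and red fills mainly the left part.

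The stop codon was passed by 158 of the broad peaks (51.8%, interval 46.0 to 57.5), beside 42.4% of H3K4me2 peaks of all widths. These 158 ran on by a median of 96 bp, and 43 of them entered another gene. The other 147 stopped short of the stop codon by a median of 253 bp. At least 90% of the principal gene was covered in 176 peaks (57.7%), beside 30.6% over all widths and 40.2% at 1200 to under 1600 bp, a share that width also raises. The last base of the gene reached from the start codon, called the reach, had a median of 1719 bp (1689 to 1764); it was 1500 bp or more in 246 peaks (80.7%) and 2000 bp or more in 55 (18.0%). Since a member must be 1600 bp wide, a long reach follows in part from the choice.

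Whether the peak ran past the gene differed with gene length, a trend that the choice by width in part sets. A peak of 1600 bp or more cannot lie inside a gene shorter than that. Among principal genes of 1400 to under 1600 bp, 33 of 39 peaks passed the stop codon (84.6%), among those of 1800 to under 2000 bp 27 of 56 (48.2%), among those of 2500 to under 3000 bp 4 of 25 and among those of 3000 bp or more 0 of 17. The median downstream edge moved from 1586 bp in the first of these classes to 1876.5 bp, 2104 bp and 1849 bp. On principal genes of 3000 bp or more the broad peak therefore covered 18.4 to 56.0% of the gene, with a median of 46.1%. By gene length, the share of genes with at least 50% of their length under broad peaks was 18.3% at 1800 to under 2000 bp (56 of 306), 2.20% under 1000 bp (53 of 2410) and 1.14% at 3000 bp or more (6 of 527). Under H3K4me2 peaks of all widths the shares were 42.5, 33.0 and 3.23% in the same order. The choice by width enters the shares for broad peaks.

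On the longest genes the broad peaks covered only the 5′ part. IRA2, a negative regulator of Ras with a gene of 9240 bp, had a peak from −52 to 1695 bp that covered 18.4% of it. RPO21, the largest subunit of RNA polymerase II (5202 bp), was covered to 1953 bp, and SIN3, a histone deacetylase subunit (4611 bp), to 1945 bp. The broad peak over HAP1, the haem-responsive activator (4509 bp), ran to 2526 bp, the farthest among the 17 peaks on genes of 3000 bp or more. LAM4, a sterol transfer protein, had the shortest of these, to 1261 bp. H3K4me3 ended before these edges, at 836 bp on IRA2, 955 bp on RPO21, 861 bp on SIN3, 1562 bp on HAP1 and 635 bp on LAM4. GAL11, a Mediator subunit (3246 bp), differed in that H3K4me2 ran only 181 bp past the end of H3K4me3, which lay at 1455 bp. The broad peak was not always the last H3K4me2 of a long gene. At HAP1, MHP1 and EDE1 another H3K4me2 peak lay further inside the gene, after gaps of 798, 1516 and 1271 bp.

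**Figure D2:**
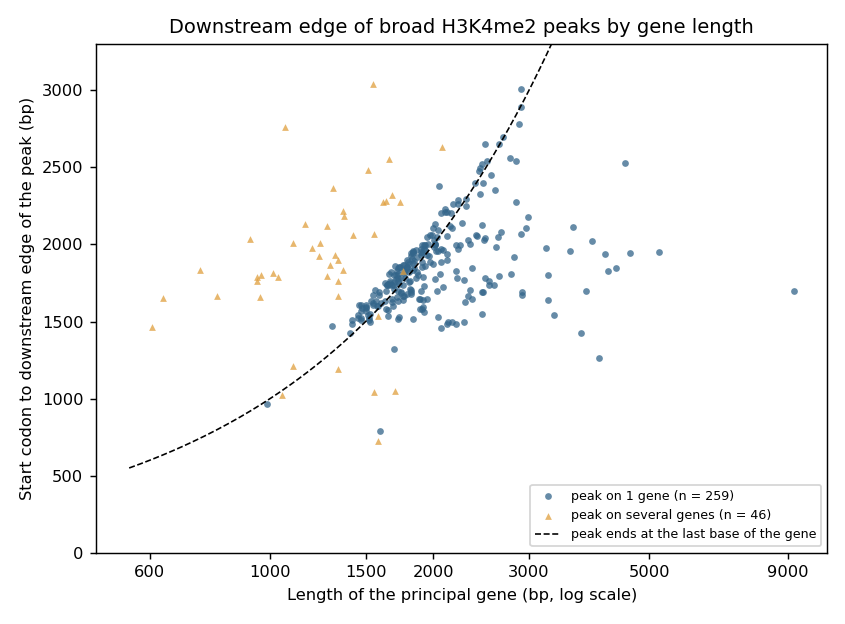
The distance from the start codon to the downstream edge of each broad H3K4me2 peak (bp) is plotted against the length of its principal gene (bp, log scale). Circles are the 259 peaks on 1 gene, triangles the 46 peaks on several genes, and the dashed line marks a peak that ends at the last base of the gene. Circles follow the line up to about 2000 bp of gene length and fall below it for longer genes, where the 17 peaks on genes of 3000 bp or more end between 1261 and 2526 bp.

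Some genes of nearly 3000 bp were covered over almost all of their length. The longest principal genes covered over at least 90% were HPF1, a cell wall mannoprotein (2904 bp, 99.6% covered), CYC8, the corepressor that acts with Tup1 (2901 bp, 100%), PFK2, the beta subunit of phosphofructokinase (2880 bp, 90.9%), SUL2, a sulfate permease (2682 bp, 90.5%), and PRY3, a cell wall protein (2646 bp, 100%). The peak over CYC8 (chromosome II, 462760 to 465864) was the widest of the list at 3105 bp and held the most tags, 1776, with a fold of 3.19. TUP1, the partner of CYC8, also had a broad peak, 2080 bp wide with a fold of 3.17, which covered 97.1% of its gene.

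The other peaks among the 10 widest were of several kinds. AMF1 with RDR1, a repressor of drug resistance genes, shared a peak of 3061 bp; TRM9 with UBX2 one of 2799 bp; NCP1, the reductase that serves cytochrome P450 enzymes of sterol synthesis, with DOG2, a sugar phosphatase, one of 2713 bp; LSB5, MXR2 and STE50 one of 2708 bp; and MET8, a sirohaem synthesis enzyme, with SDS24 one of 2679 bp. HPF1 (2912 bp), PRY3 (2767 bp), FAR1, the inhibitor of the cell cycle in the pheromone response (2752 bp), and HAP1 (2645 bp) each had a peak on 1 gene. The fold of these 10 peaks lay between 2.78 and 3.36, inside the range of all broad peaks, 1.96 to 4.09. The highest folds were at CAR2 with LSM3 (4.09), LAS17, the yeast homologue of the WASP actin regulator (3.43), INN1 with RPC31 (3.42), RGM1 with YMR181C (3.38) and SDS24 with MET8 (3.36). The last of these was tied with the peak over WSC4 alone, a cell wall sensor, also 3.36, which was named after its value had been seen.

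H3K4me3 peaks overlapped nearly all broad H3K4me2 peaks and in most of them covered the upstream part more than the downstream part. An H3K4me3 peak met 289 of the 305 by at least 1 bp (94.8%, interval 91.6 to 97.0), beside 87.6% of H3K4me2 peaks of all widths and 92.4% of those of 1200 to under 1600 bp. A wider interval meets another peak more easily. A single H3K4me3 peak was met in 254 and 2 in 35, and 90 of the broad peaks met an H3K4me3 peak that was itself 1600 bp or wider. The median share of bases under H3K4me3 was 67.3% (63.7 to 70.8), against 74.5% at 1200 to under 1600 bp and 79.0% over the whole list. The longest run of bases without an H3K4me3 peak had a median of 604 bp (547 to 652) and reached 1000 bp in 61 peaks (20.0%), beside 7.04% over all widths and 8.45% of the peaks of 1200 to under 1600 bp. A peak under 1000 bp cannot hold such a run, so the choice by width in part sets these values.

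Each peak was divided into 3 equal parts along the strand of its principal gene. The upstream part held more H3K4me3 than the downstream part in 253 broad peaks (83.0%, interval 78.3 to 87.0), beside 74.7% of H3K4me2 peaks of all widths and 82.4% of those of 1200 to under 1600 bp. Among peaks with an H3K4me3 base it was 253 of 289 (87.5%), beside 85.4% over all widths, so the broad peaks were close to the rest in this. The downstream part held more in 17, the 2 were equal in 19 and H3K4me3 was not called in 16. In the 259 peaks on 1 gene the mean cover by H3K4me3 was 89.8% in the upstream, 71.9% in the middle and 25.2% in the downstream part. In the 691 peaks of 1200 to under 1600 bp on 1 gene it was 89.8, 84.2 and 36.4%.

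The convergent peaks had H3K4me3 at both ends. In these 31 the mean cover was 87.0% in the upstream, 62.5% in the middle and 79.2% in the downstream part, and both outer parts were covered over at least 50% in 24 of 31, against 55 of 259 peaks on 1 gene. In 17 of the 31 there were 2 separate H3K4me3 peaks. Convergent peaks of 1200 to under 1600 bp also had H3K4me3 at both ends, with both outer parts covered over at least 50% in 22 of 37. Of these 37, 13 had 2 H3K4me3 peaks. The peak over ECO1, a cohesin acetyltransferase, and CDC14, a mitotic exit phosphatase, was 2526 bp wide, with 2 H3K4me3 peaks separated by a run of 912 bp without that mark. The peak over ERG4, a sterol reductase, and SCL1, a proteasome subunit, was 2173 bp wide and had its own pair of H3K4me3 peaks, with 439 bp between them. At WSS1 and the casein kinase gene YCK1 the 2 H3K4me3 peaks came within 18 bp of each other and covered 99.2% of a peak of 2139 bp. The 13 tandem peaks had mean covers of 84.0, 84.2 and 67.5%.

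**Figure D3:**
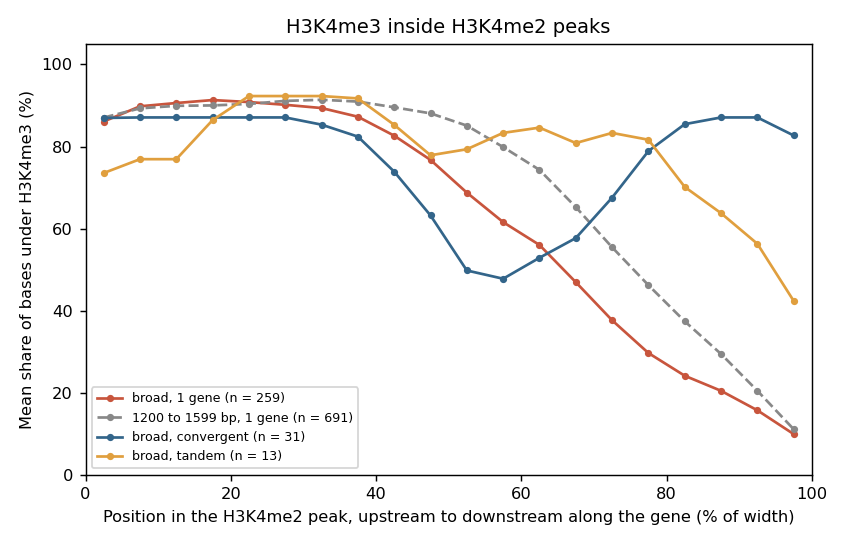
The mean share of bases under H3K4me3 (%) is plotted against position in the H3K4me2 peak (% of its width, upstream to downstream along the principal gene) in 20 bins, for broad peaks on 1 gene (n = 259), on convergent genes (n = 31) and on tandem genes (n = 13) and for H3K4me2 peaks of 1200 to under 1600 bp on 1 gene (n = 691, dashed). Cover in broad peaks on 1 gene falls from 91.3% at its highest to 9.92% in the last bin, and the convergent curve dips to 47.8% near the middle and rises again to 87.1%.

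The offset between the marks was measured in the 231 broad peaks that lay on 1 gene and met 1 H3K4me3 peak. The share with H3K4me3 on the upstream side was close to that in H3K4me2 peaks of other widths, and the length of H3K4me2 past H3K4me3, which the choice by width favours, had a higher median. In 195 of them (84.4%, interval 79.1 to 88.8) both edges of the H3K4me3 peak lay upstream of the matching edges of the H3K4me2 peak. In 29 the H3K4me3 peak lay inside the H3K4me2 peak and in 3 (ICL1, ECM3 and VRP1) it enclosed that peak. In 4 (ARO10, GLC3, HAP4 and, by 1 bp at its end, UGA1) both of its edges lay downstream of the matching ones. The first of these arrangements made up 82.9% over all widths and 86.4% at 1200 to under 1600 bp, close to the share in the broad peaks. The H3K4me3 peak ran from a median of −162 bp to 1204 bp (1153 to 1278), so H3K4me2 started a median of 144 bp later and continued for 605 bp (560 to 648) past the last H3K4me3 base. In the corresponding 631 peaks of 1200 to under 1600 bp the H3K4me3 peak ended at 1065 bp and H3K4me2 continued for 311 bp (289 to 337). The H3K4me2 summit lay downstream of the H3K4me3 summit in 213 of the 231 (92.2%, 88.0 to 95.3), beside 87.6% over all widths and 88.0% at 1200 to under 1600 bp. The median shift was 439 bp, against 330 bp at 1200 to under 1600 bp and 283 bp in narrower peaks.

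At genes of similar length both marks ended later where the H3K4me2 peak was broad. Compared here were H3K4me2 peaks that lay on a single gene and met a single H3K4me3 peak, on genes of 1800 to under 2500 bp. This range was chosen after values had been seen. The downstream edge of H3K4me3 had a median of 1217 bp (1078 to 1339) under 115 such broad peaks. It was 957 bp (915 to 1040) under 107 peaks of 1200 to under 1600 bp. Under 208 narrower ones it was 854 bp (805 to 898). The H3K4me2 edge, which the choice by width largely sets, lay at 1925, 1374 and 1081 bp. The stretch of H3K4me2 past H3K4me3 was 631, 410 and 168.5 bp long. The authors' fold of the H3K4me3 peak had medians of 3.26, 3.23 and 3.05, and H3K4me2 tag density had medians of 498, 452 and 410.2 tags per kb in the same order. The part of tag density in these edges was not tested.

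**Figure D4:**
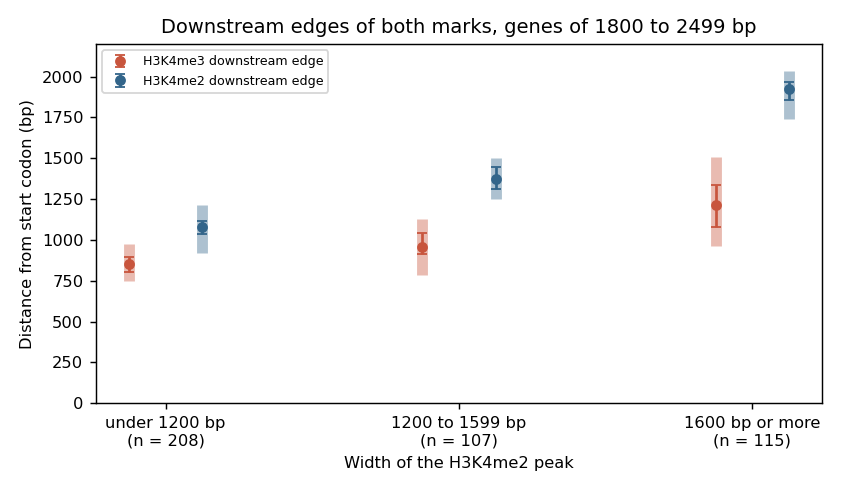
Downstream edges of H3K4me3 (red) and H3K4me2 (blue) peaks are shown as distance from the start codon (bp) on genes of 1800 to under 2500 bp, by the width of the H3K4me2 peak. Points are medians, whiskers their exact 95% intervals and pale bars the quartiles over 208, 107 and 115 peaks. Each of these peaks lies on a single gene and meets a single H3K4me3 peak. The H3K4me3 medians are 854, 957 and 1217 bp, and the gap to the H3K4me2 median is widest in the broad class.

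CYC8 and FRK1 had the longest stretches of H3K4me2 alone past an H3K4me3 peak. The H3K4me3 peak of 1353 bp at CYC8 ran from −268 to 1084 bp and covered 38.0% of the broad peak, and the remaining 1926 bp to the downstream edge at 3010 bp carried H3K4me2 alone. FRK1, which encodes a protein kinase, had H3K4me3 ending at 384 bp and 1970 bp of H3K4me2 after it. At the other extreme, 11 broad peaks were under H3K4me3 at every base. The widest 5 of these were TRM9 with UBX2 (2799 bp), URA8 with SOD1 (2342 bp), UIP5 with YKR045C (1897 bp), ICL1, isocitrate lyase of the glyoxylate cycle (1864 bp), and STP3 with PSY3 (1741 bp), and 4 of the 5 lay on 2 genes. The H3K4me3 peak over TRM9 and UBX2 was 5613 bp wide with 2689 tags and a fold of 4.1, and ran on over neighbouring genes.

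No H3K4me3 peak was called over 16 broad H3K4me2 peaks. The 8 widest lay over HPF1 (2912 bp), YCT1, a cysteine transporter (2310 bp), YJL163C (1960 bp), AQY1, an aquaporin, with HPA2 (1865 bp), XBP1, a stress-induced repressor (1862 bp), YHK8 (1794 bp), CTS1, the chitinase of cell separation (1780 bp), and MSN4, an activator of the stress response (1778 bp). The other 8, named after their values had been seen, were TOS2, HXT2, ASH1, CTT1, YPS3, CIT3, APE1 and ICL2. Here HXT2 is a glucose transporter, ASH1 a daughter-cell repressor, CTT1 the cytosolic catalase and CIT3 a mitochondrial citrate synthase.

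The 16 peaks had lower median H3K4me2 fold and tag density than the other broad peaks, within the range of those. Their H3K4me2 fold had a median of 2.58 (range 2.20 to 3.09), against 2.79 in the 289 with H3K4me3, and their tag density a median of 432 tags per kb, against 495. The intervals of the medians do not overlap, at 2.39 to 2.73 against 2.76 to 2.83 for fold and 403 to 469 against 487 to 501 tags per kb, while single peaks of the 2 groups do. The nearest H3K4me3 peak lay 78 to 3736 bp away, with a median of 1178 bp. Most of the 16 began near the start codon (median −58.5 bp), but the YCT1 peak began 1522 bp upstream of it and had 34.1% of its bases in coding sequence. An H3K4me3 peak that was not called may still be a signal below the caller's limit, since the depth of the libraries is unknown.

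In a few broad peaks the order of the marks along the principal gene was turned round. Of the 17 peaks with more H3K4me3 in the downstream part, 5 were convergent, 3 tandem and 9 on 1 gene. The clearest on 1 gene, named after their values had been seen, were ARO10, a decarboxylase of amino acid catabolism, with H3K4me3 from 1175 to 1890 bp of a gene of 1908 bp; HAP4, the activator of respiratory genes, with H3K4me3 from 1106 to 1806 bp of 1665 bp; YNL095C, from 1409 to 1955 bp of 1929 bp; GLC3, the glycogen branching enzyme, from 948 to 2172 bp of 2115 bp; and SUL2, from 973 to 2530 bp of 2682 bp. H3K4me3 folds at these 5 were 2.79, 2.86, 2.44, 2.24 and 2.08, all under the median of 3.26 for H3K4me3 peaks inside broad peaks on 1 gene. The start codon nearest to the H3K4me3 summit was that of YRA1 for ARO10 (870 bp away) and of SLD2 for HAP4 (658 bp). It was that of RPS7B for YNL095C (817 bp), of NYV1 for SUL2 (1772 bp) and the gene's own for GLC3 (1611 bp). At ATF1, in a tandem peak, and at ALD4 it was also the gene's own, 34 and 101 bp away. At HAP4 another H3K4me3 peak, 1137 bp wide, lay over the start of SLD2. For comparison, in the 231 broad peaks on 1 gene with 1 H3K4me3 peak, the H3K4me3 summit lay a median of 312 bp after the start codon. To which gene the H3K4me3 of the turned peaks belongs was not tested. At UGA1 and ALD4 H3K4me3 covered 94.2 and 93.0% of the peak, so that the difference between the ends was small there, and at THI3 and KTR5 2 H3K4me3 peaks were met.

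**Figure D5:**
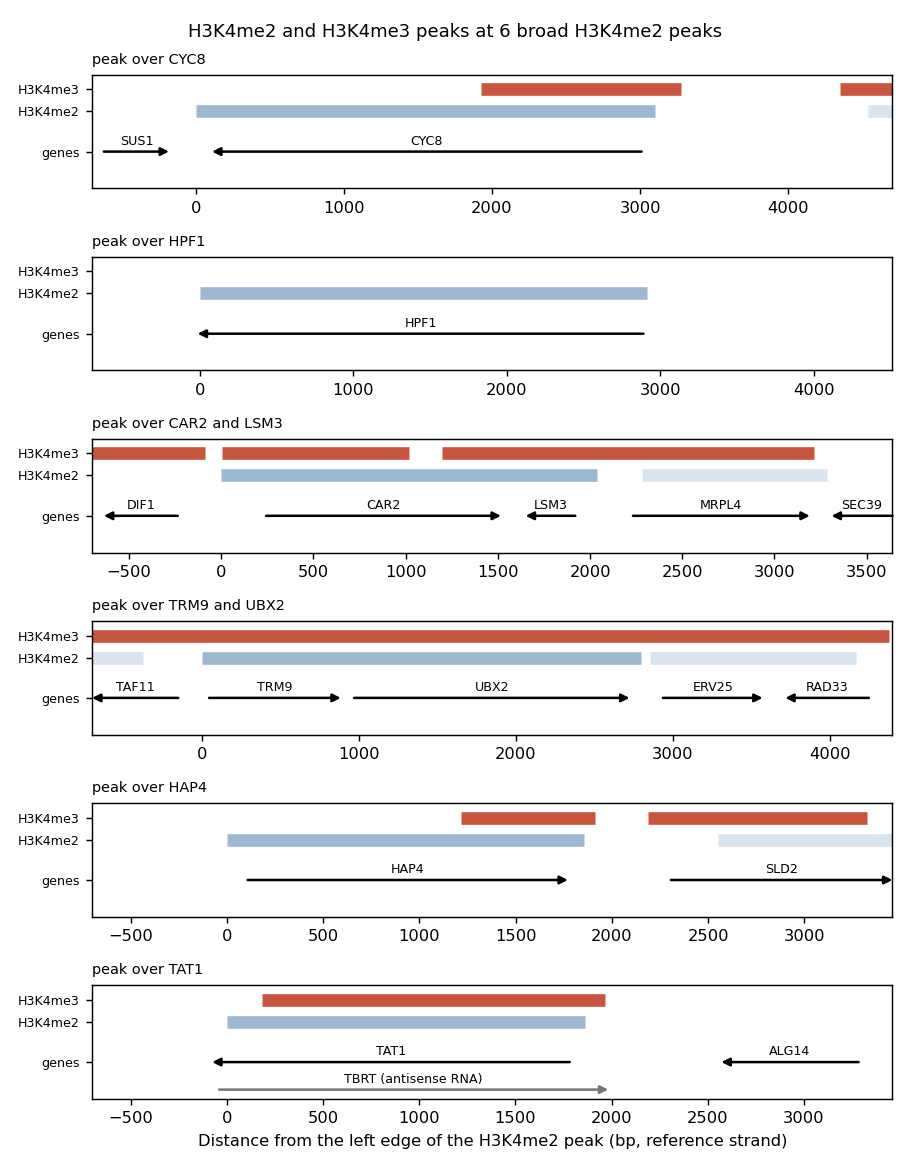
Maps of 6 broad H3K4me2 peaks show H3K4me3 peaks (red), the broad H3K4me2 peak (blue), other H3K4me2 peaks (pale blue) and genes (arrows in the direction of transcription, noncoding in grey) by distance from the left edge of the broad peak (bp). H3K4me3 covers 38.0% of the peak at CYC8, lies at the 5′ end there, is not called at HPF1, forms 2 peaks at CAR2 and LSM3, covers all of TRM9 and UBX2 and lies at the 3′ end at HAP4.

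Broad peaks fell on genes of many functions. Over all 6002 nuclear protein-coding genes, 338 had at least 50% of their length under broad H3K4me2 peaks (5.63%), and of 420 genes in 15 functional lists 43 did (10.2%). The lists differ in gene length, with which the frequency of broad peaks varied, and the median cover by broad peaks was 0% in every list and over all genes. Plasma membrane and nutrient transporters had 7 of 33 (HXT2, TAT1, BAP3, GNP1, LYP1, MEP3 and TPO1), with a median list length of 1815 bp. TPO1, a polyamine exporter, and the ammonium permease MEP3 were covered over 100% of the gene, and the lysine permease LYP1 over 89.2%. Amino acid synthesis had 8 of 56 (HIS4, HIS7, LEU1, LEU4, ILV1, ILV2, ASN1 and ASN2), at covers of 78.9% for the isomerase LEU1 to 100% for the isopropylmalate synthase LEU4.

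Enzymes of central metabolism were met in part. The TCA cycle had 3 of 16, namely CIT3, the aconitase ACO1 (72.8% covered) and the succinate dehydrogenase subunit SDH1 (81.2%). Glycolysis and fermentation had 2 of 21, both subunits of phosphofructokinase, PFK1 (67.5%) and PFK2 (90.9%). Ergosterol synthesis had 4 of 24, which were ERG4, ERG9, ERG24 and NCP1, and each of these shared its peak with a neighbouring gene. Cell wall and glucan synthesis had 4 of 24 (GAS1, GAS5, CRH1 and KRE6), heat shock proteins 3 of 19 (HSP60, SSC1 and SSE1) and the V-ATPase 1 of 15 (VMA2).

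Among genes of protein and chromatin complexes the proteasome had 4 of 32 (SCL1, RPN1, RPN2 and RPN10), ribosome biogenesis 4 of 55 (UTP5, UTP18, SPB1 and NOG1) and chromatin remodellers with general transcription factors 3 of 31 (RSC8, CYC8 and TUP1). Large-subunit ribosomal proteins had 0 of 43, with a median gene length of 894 bp, and meiosis and sporulation 0 of 36. COMPASS, the writer of the mark, had 0 of 8 and the Set3 complex, a reader of it, 0 of 7. Over all nuclear protein-coding genes the share was 5.63%, and in lists this short a count of 0 is near that share.

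The offset of the marks at listed genes can be read from single peaks. The peak over PFK1 ran from 103 to 2104 bp, with 69.5% of its bases under H3K4me3 and 610 bp of H3K4me2 alone at its end, and that over PFK2 from 159 to 2777 bp, with 73.5% and 693 bp. Of the mitochondrial chaperones, SSC1 had 67.6% and 608 bp, and HSP60 had 81.6% and 311 bp. Among amino acid synthesis genes the acetolactate synthase ILV2 had 539 bp, LEU4 545 bp and the histidine enzyme HIS4 480 bp of H3K4me2 past H3K4me3. RPN1, a base subunit of the proteasome, had 1113 bp and ACO1 865 bp, both longer than the median of 605 bp. The glucanosyltransferase GAS1 had 275 bp and TPO1 262 bp, both shorter. HXT2 and CIT3 had no H3K4me3 peak, as given above.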

How the data were processed

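MACS 1.4.2, a peak caller, and CASAVA 1.8.2 were used on the sacCer3 build, per the submitters' processing notes. The settings, the aligner, the control and how reads matching several places were handled were not given in the sources used here. For each mark 1 peak list was deposited. Per the file headers each peak has a whole-number tag count, a fold enrichment (a ratio) and a p-value column, whose values of 50.02 and more were read as a score, whose scale the authors do not state. The lists hold 2998 H3K4me2 peaks with 1492318 tags and 3714 H3K4me3 peaks with 1644589 tags. Tags outside peaks are not listed, so the depth is unknown. Fold and score are the authors' own and were used within a list.

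Widths are end minus start plus 1, on sacCer3 coordinates as deposited; whether starts count from 0 is not stated. Genes came from a RefSeq table of R64, the same assembly, with strand from the systematic name; 96.4% of gene lengths are multiples of 3, so spans hold coding sequence. Shares have exact (Clopper-Pearson) and medians order-statistic 95% intervals, computed with scipy 1.17.1, pandas 2.3.3 and numpy 2.4.6 in Python 3.11.15, and the code was tested on 200 simulated peaks. The members, the gene lists and the rules were chosen with earlier results of these data known. The rule names the 10 widest peaks, the 5 of highest fold, with most whole genes, most H3K4me3, the longest run without it or the longest gene covered at 90%, the 8 widest without H3K4me3 and 3 on each side of the limit. Of the listed gene names 1 was not found. Mitochondrial genes were left out.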

Additional observations from a re-analysis of the deposited data

How the results depend on the processing

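Of 40 values recomputed under another setting, 16 moved beyond a tolerance, which was 1.5 times for a count and the 95% interval of the reported value for a share or median. With a width limit of 1500 bp the median reach was 1645 bp, and, within the tolerance, there were 422 peaks and 55 listed genes. With H3K4me2 fold not below the list's median 219 broad peaks were left. With 1800 bp there were 155 peaks, 21.9% touched at least 2 genes, 79.4% lay on 1 gene, the reach was 1860 bp and 20 listed genes were met. With principal genes of at least 1500 bp alone the reach was 1769 bp. The share of broad peaks with H3K4me3 was 76.4% when at least 50% of the peak had to be covered, 89.5% when an H3K4me3 summit had to lie inside, 86.9% with H3K4me3 peaks of a score of at least 100, 86.6% with as many H3K4me3 as H3K4me2 peaks, and 60.0% with H3K4me3 peaks whose fold was not below their list's median. The share of bases under H3K4me3 was 50.6% at that fold limit and 26.2% with H3K4me3 peaks of 500 bp around their summits. The share of peaks with more H3K4me3 upstream was 77.0% at the score limit and 53.8% at the fold limit. Stricter H3K4me3 lists and narrower peaks hold fewer bases by construction. No paired analysis was possible because each mark has 1 library and no test was made. The number of peaks, their edges and the call of no H3K4me3 peak depend on the depth of each library and on the caller's settings, which are unknown, and 1 library per mark gives no spread between replicates.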

Other observations

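Broad H3K4me2 peaks occurred on all 16 nuclear chromosomes, from 4 on chromosome VI to 33 on chromosome XII. The nearest other H3K4me2 peak lay a median of 675 bp away (interval 620 to 764), against 643 bp for peaks of 1200 to under 1600 bp and 749 bp for narrower ones. The H3K4me2 summit of the broad peaks lay a median of 731 bp after the start codon, and in 218 of 305 (71.5%) it was nearer to the upstream than to the downstream edge along the gene, beside 51.9% over all widths and 57.4% at 1200 to under 1600 bp. Peaks with less than 70% of their bases in coding sequence, named after their values had been seen, were those over YLR177W, YCT1, ATF1, RGM1, AQY1 and PPM1.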
